A study of Mus musculus with 9 samples.

Results

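The clustered replication-dependent histone genes were followed in LLC1 cells, the mouse Lewis lung carcinoma line, after contact with T cells. Members were all protein-coding genes whose symbol in the deposited tables begins with Hist1h, Hist2h, Hist3h or Hist4h, which made 55 of the 19305 genes listed in either of 2 tables. The table with Th9 listed 54 members among 18816 genes and the table with Th17 listed 55 among 18511. By type, the members were 6 genes for H1, 14 for H2A, 14 for H2B, 9 for H3 and 12 for H4.

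There were 3 groups of 3 libraries, made from LLC1 cells kept for 24 h with Th9 cells, with Th17 cells or with Th0 cells. In every group the T cells were artificially generated subsets that touched the cancer cells at a ratio of 1 to 1, and CD4+ cells were sorted away before total RNA was taken from what remained. All groups had therefore met T cells, and no library of LLC1 cells kept alone was analysed here. The labels give neither the mouse strain of the T cells nor the factors used to polarize them, and they do not say whether libraries of a group came from separate cultures, so the p-values measure the spread between these libraries, which may be technical. The title puts the question of whether such lymphocytes induce an epithelial-mesenchymal transition.

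Histones package DNA into nucleosomes, in which DNA winds around a core of H2A, H2B, H3 and H4, and the linker histone H1 binds where DNA enters and leaves that core. The clustered genes are transcribed mainly in S phase, when new DNA needs new histones, and their mRNAs rise and fall with DNA synthesis. Their mRNAs mostly lack introns and a poly(A) tail, and end instead in a conserved stem-loop that the stem-loop binding protein, SLBP, holds through processing, translation and decay. The libraries were prepared from total RNA, so transcripts without poly(A) were not selected against at that step.

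Most members lie close together, in the coordinates of the tables (GRCm38, mm10). The Hist1 cluster on chromosome 13 held 48 members, in a block of 13 genes between positions 21715763 and 21832196, a block of 5 between 22035164 and 22043676 and a block of 29 between 23531050 and 23764358. Hist1h2al stood alone at 51202688 to 51203065, and GENCODE M21 lists it as a processed pseudogene. The other clusters held 4 genes (Hist2, chromosome 3), 2 genes (Hist3, chromosome 11) and 1 gene (Hist4, chromosome 6). Hist3h2a overlapped another gene of the tables, Trim17 on the same strand, and was the only member to overlap one.

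The stem-loop that marks these mRNAs was looked for in 1 GENCODE M21 transcript of each of the 55 members. The search used a fixed pattern of letters and found a match in 34 members, in 5 forms. A missing match says only that this transcript does not hold these letters. Some gene models stop at the end of the coding region, but others without a match are longer, such as Hist2h2be with 2620 bases. The most frequent form was shared by 19 genes of the H1, H2A, H2B and H3 types, among them Hist1h1e and Hist1h2bg. The 8 stem-loops found in H4 genes took forms that no other type had, 1 shared by 6 genes and 1 held by Hist1h4i and Hist2h4. Hist2h2ac was alone with its form. The sequences below show 1 or 2 genes of each form, 5′ to 3′ as DNA, with the stem-loop in capitals and 5 bases on either side in lower case.
Hist1h1e: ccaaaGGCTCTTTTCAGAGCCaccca
Hist1h2bg: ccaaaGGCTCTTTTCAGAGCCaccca
Hist1h2bb: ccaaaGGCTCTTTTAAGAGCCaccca
Hist2h2ac: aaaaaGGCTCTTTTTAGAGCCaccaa
Hist1h4h: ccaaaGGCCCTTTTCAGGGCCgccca
Hist2h4: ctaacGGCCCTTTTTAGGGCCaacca

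Members resemble each other in the coding region, which bears on how reads can be assigned. In the M21 transcripts, 51 of the 55 members shared at least 1 run of 50 bases with another gene, and 24 shared over 50% of all their runs of that length. The median shared part was 66.0% in H2A genes, 54.1% in H3, 44.5% in H2B, 34.2% in H4 and 1.13% in H1. Hist1h1a, Hist1h1b, Hist1h1t and Hist2h2be shared none. Among H1 genes the shared part was highest in Hist1h1e, at 32.0%. Values of Hist1h1e and of single core histone genes are therefore uncertain where reads fall in shared stretches. How such reads were counted is not given in the sources used here.

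Each table gives normalized counts, rounded to whole numbers, and each comparison was made within its own table. The approximate number of assigned reads was between 12719271 and 17504522 per library, of which 25086 to 39952 fell on the members. Th0 replicate 1 stood apart, with 31.1% of its reads on Gm26917, mt-Rnr2 and mt-Rnr1, which are non-coding or ribosomal RNA genes, against 14.9% to 21.8% in the other 8 libraries. Over the members, the chi-square per degree of freedom between libraries of a group was 2.95 to 8.25 within Th9 and 2.16 to 10.02 within Th17. Within Th0 it was 20.9 and 14.6 for replicate 1 against replicates 2 and 3, and 4.98 between these 2. Counts of members are therefore given with and without Th0 replicate 1.

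In the presence of Th9 cells, histone genes were lower more often than higher, linker histone genes among them. A gene was tested if its mean over the 6 libraries of its table was at least 10, and called if its Benjamini-Hochberg adjusted p in limma-trend, over all tested genes, was under 0.05. Of 50 tested members, 12 were lower with Th9 than with Th0, which is 24% of them against 11.9% of all 14475 genes tested. Only Hist1h2bg was higher, which is 2% of members against 13.4% of all genes. The median log2 fold change of the members was -0.21, against -0.01 for all tested genes, and 33 of the 50 had a negative value. The median of the members was -0.12 without Th9 replicate 3. Without Th0 replicate 1, 19 members were lower (background 19.1%) and 2 were higher (background 18.1%). The other 4 listed members had a mean under 10 and were not tested, with values of 1 to 7 for Hist1h1t, 2 to 13 for Hist1h2ad, 1 to 5 for Hist1h2al and 7 to 12 for Hist3h2ba.

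With Th17 cells the values of the members lay on both sides of Th0 and few were called. Of 51 tested members, 2 were higher than with Th0 (3.92%, background 1.19%), namely Hist1h2bg and Hist1h4h. No member was lower in limma-trend (background 0.39%), although 16 members had an unadjusted p under 0.05 in either direction. The median log2 fold change of the members was 0.16, against -0.0046 for all 14342 tested genes, and 17 of the 51 had a negative value. The median of the members was 0.04 without Th0 replicate 1 and 0.09 without Th17 replicate 1. Without Th0 replicate 1, 7 members were higher (13.7%, background 6.85%) and 10 were lower (19.6%, background 9.7%). Both comparisons use the same Th0 libraries, so they are not independent of each other, and as the tables were normalized separately the difference between Th9 and Th17 was not tested. Members of the Th17 table with a mean under 10, which were not tested, were Hist1h1t, Hist1h2al, Hist2h2ab and Hist3h2ba.

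**Figure D1:**
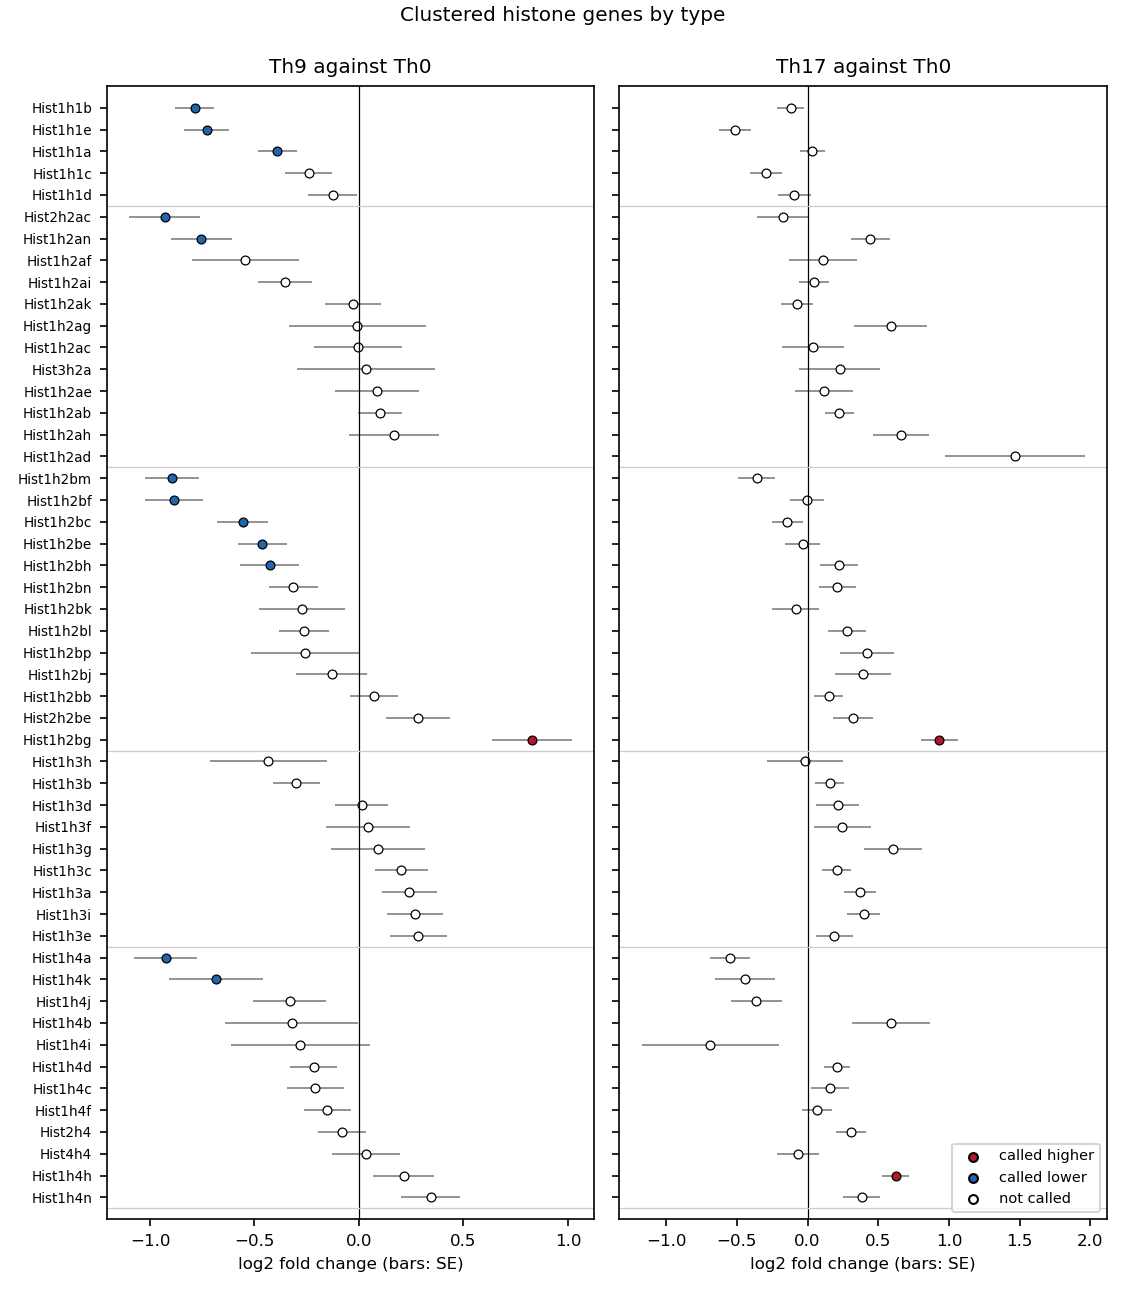
Log2 fold change (x axis, Th9 against Th0 on the left and Th17 against Th0 on the right) of each tested clustered histone gene, grouped by type with H1 at the top and H4 at the bottom, with bars for the standard error. Filled points passed an adjusted p of 0.05, 12 lower and 1 higher with Th9 and 2 higher with Th17.

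H1 genes, which encode the linker histones, gave the largest part of the histone signal. Per kilobase of gene, over the 51 members of the Th9 table that have a single exon, Hist1h1e was the highest member in Th0, at 12193 normalized counts per kilobase. Hist1h1d followed with 5014 and Hist1h1b with 4055, ahead of the highest core histone gene, Hist1h2bm, with 3140. Hist1h1t, which encodes a testis-specific H1, was the lowest with 4.12.

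Hist1h1b and Hist1h1e, both encoding linker histones, had the lowest adjusted p among H1 genes with Th9. Hist1h1b had 1659, 1799 and 1765 normalized counts with Th9 and 2651, 3256 and 3131 with Th0, a log2 fold change of -0.79 (SE 0.09, limma-trend adjusted p 8.95e-05). Hist1h1e had 5088, 5726 and 5629 with Th9 and 7880, 9816 and 9666 with Th0 (log2 fold change -0.73, SE 0.11, limma-trend adjusted p 0.000462). In both genes every Th9 library lay below every Th0 library, and the calls held without any 1 of the 6 libraries. Hist1h1a, another linker histone gene, had 639, 707 and 669 with Th9 and 789, 969 and 891 with Th0 (log2 fold change -0.39, limma-trend adjusted p 0.0102). Its limma-trend call was lost without Th9 replicate 1 (adjusted p 0.0673) and with all libraries scaled to equal totals (log2 fold change -0.28, adjusted p 0.143).

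The remaining H1 genes were not called with Th9. Hist1h1c had 3392, 3561 and 3741 normalized counts with Th9 and 3520, 4571 and 4640 with Th0 (log2 fold change -0.24, limma-trend adjusted p 0.131). Hist1h1d had 3358, 3302 and 3489 with Th9 and 3031, 4307 and 3853 with Th0 (log2 fold change -0.13, limma-trend adjusted p 0.466). In both genes Th0 replicate 1 held the lowest Th0 value, and in Hist1h1d it lay below all Th9 libraries. Without that library all 5 tested H1 genes were lower with Th9, at log2 fold changes of -0.88 to -0.27. The share of all genes called lower with Th9 then rose from 11.9% to 19.1%.

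With Th17, 0 of 5 tested H1 genes were called by limma-trend, and 2 had an unadjusted p under 0.05. Hist1h1e came nearest, with 7263, 6326 and 6041 normalized counts with Th17 and 8105, 10029 and 9919 with Th0 (log2 fold change -0.51, SE 0.11, limma-trend adjusted p 0.0506). Its groups did not overlap. Hist1h1b had 3068, 2786 and 2662 with Th17 and 2726, 3326 and 3213 with Th0, and its groups overlapped (log2 fold change -0.12, limma-trend adjusted p 0.558). Without Th0 replicate 1, 4 of 5 H1 genes were lower with Th17, the exception being Hist1h1a with a log2 fold change of -0.04. Over all genes, leaving out this library raised the share called lower with Th17 from 0.39% to 9.7%.

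**Figure D2:**
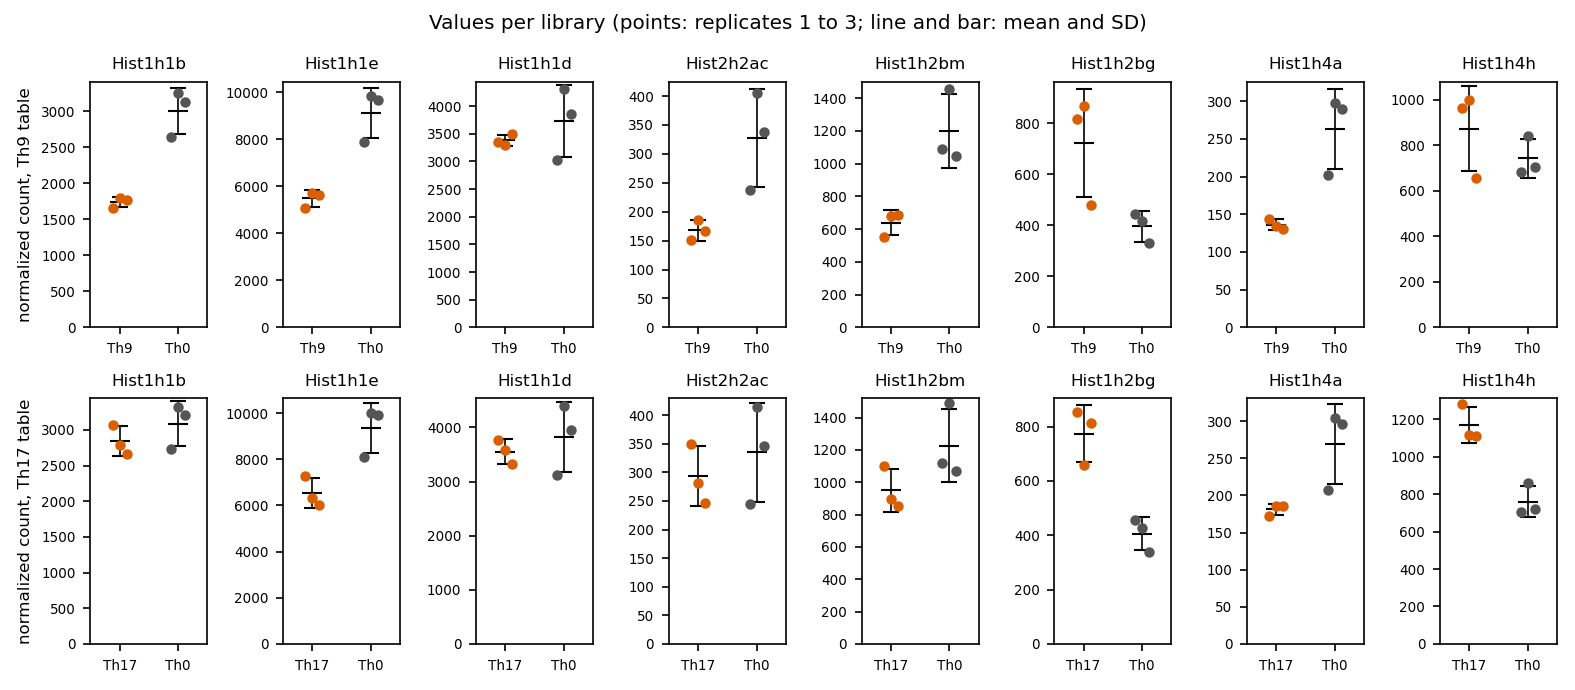
Normalized counts per library (y axis, from 0) of 8 clustered histone genes in the Th9 table (upper row) and the Th17 table (lower row), with Th9 or Th17 on the left of each panel and Th0 on the right, the mean as a line and the SD as a bar (n = 3). Hist1h1b and Hist1h1e lie at 1659 to 1799 and at 5088 to 5726 with Th9, below all Th0 libraries, whereas Hist1h2bg lies above them in both tables.

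The make-up of the histone signal by type does not depend on how libraries were scaled, because each type is set against the other types of the same library. H1 genes made 56.1%, 55.8% and 59.8% of the summed values of all members with Th9 and 62.0%, 62.7% and 64.3% with Th0. With Th17 their share was 55.4%, 56.3% and 55.1%. Th0 replicate 1 was not apart from the other Th0 libraries in this share, and neither Th9 nor Th17 overlapped Th0. Hist1h1e alone made 20.2% to 22.0% of the members' sum with Th9 and 26.9% to 28.0% with Th0, and it made 20.7% to 21.3% with Th17. Hist1h1b made 6.58% to 6.90% with Th9 and 8.91% to 9.19% with Th0. With Th17 Hist1h1b made 8.995% to 9.12%, which lies within the range of its Th0 share. When both of these genes were left out, the H1 share was 40.0%, 38.8% and 43.5% with Th9 and 40.1%, 42.0% and 43.2% with Th0, so these groups overlapped. With Th17 it was 36.0%, 37.7% and 36.1%, below all Th0 libraries of its table. A share over members carries no test here, and a lower share of H1 can come with less H1 or with more of the other types. The level of the share also depends on how reads in stretches shared between genes, Hist1h1e among them, were counted, which is not given.

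**Figure D3:**
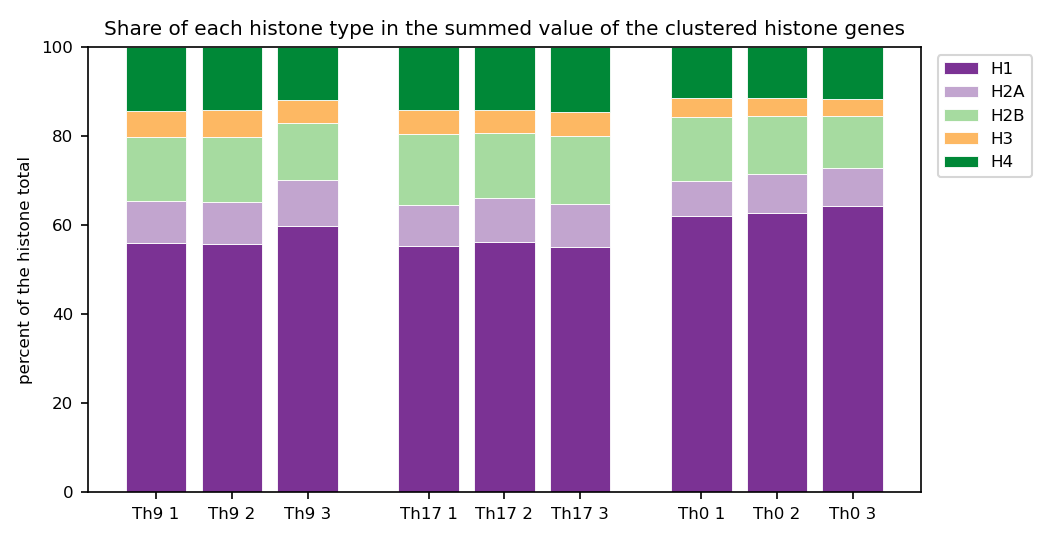
Percent of the summed normalized counts of the clustered histone genes (y axis, 0 to 100) held by each type, for 3 libraries each of Th9, Th17 and Th0, the Th0 shares being those in the Th9 table. H1, at the bottom of each bar, takes 55.1% to 59.8% with Th9 or Th17 and 62.0% to 64.3% with Th0.

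Promoters of the H1 genes share short motifs, which are shown for the 5 tested genes. RefSeq promoters, from 250 bases before to 50 bases after the start, were found for 49 of the 55 members. A script searched 4 motifs on both strands: CCAAT, bound by the factor NF-Y; TATAAA, the TATA box; the octamer ATTTGCAT, bound by Oct factors; and AAACACA, known as the H1 box. AAACACA was in 5 of 6 H1 promoters and in 7 of all 49 members (14.3%), against 7.18% of the 32851 promoters in the table. Hist1h1a was the H1 gene without it. CCAAT was in all 38 promoters of H1, H2A, H2B and H3 genes and in 3 of 11 of H4 genes, so in 83.7% of members against 37.4% of all promoters. TATAAA was in 63.3% of members against 13.6% of all. The lines below give the 130 bases before the start of transcription (RefSeq, GRCm38.p6), with all matches to these motifs in capitals, and ATTGG as CCAAT on the other strand. Their positions are chr13:23763538-23763667 (plus strand), chr13:21780626-21780755 (minus strand), chr13:23738677-23738806 (plus strand), chr13:23554902-23555031 (plus strand) and chr13:23622559-23622688 (minus strand). The genes that carry AAACACA include called ones (Hist1h1b, Hist1h1e) and ones that were not called (Hist1h1c, Hist1h1d) with Th9.
Hist1h1a: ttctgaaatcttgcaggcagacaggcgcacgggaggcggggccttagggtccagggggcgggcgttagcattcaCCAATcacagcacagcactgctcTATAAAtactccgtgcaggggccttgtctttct
Hist1h1b: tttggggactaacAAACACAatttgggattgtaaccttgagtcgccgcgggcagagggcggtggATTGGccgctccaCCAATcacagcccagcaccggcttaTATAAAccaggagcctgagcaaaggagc
Hist1h1c: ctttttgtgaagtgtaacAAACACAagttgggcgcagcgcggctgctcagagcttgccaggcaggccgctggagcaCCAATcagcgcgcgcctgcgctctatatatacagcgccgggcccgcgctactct
Hist1h1d: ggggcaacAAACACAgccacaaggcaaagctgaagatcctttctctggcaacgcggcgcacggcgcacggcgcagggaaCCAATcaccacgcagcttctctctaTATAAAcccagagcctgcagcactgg
Hist1h1e: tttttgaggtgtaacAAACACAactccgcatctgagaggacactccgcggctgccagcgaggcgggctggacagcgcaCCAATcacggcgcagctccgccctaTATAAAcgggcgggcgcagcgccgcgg

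H2A genes, which encode a core histone paired with H2B in the nucleosome, were mostly not called. With Th9, 2 of 11 tested genes were lower, where 11.9% of all genes were, and 0 were higher. Without Th0 replicate 1, 3 were lower (background 19.1%). Hist2h2ac had 151, 186 and 166 normalized counts with Th9 and 237, 406 and 338 with Th0 (log2 fold change -0.93, SE 0.17, limma-trend adjusted p 0.00198). Hist1h2an had 109, 121 and 95 with Th9 and 162, 180 and 209 with Th0 (log2 fold change -0.76, limma-trend adjusted p 0.00264). In both genes the groups were apart, and both calls held without any 1 library. The most abundant H2A gene by value, Hist1h2ak, had 1096, 1073 and 1378 with Th9 and 987, 1429 and 1221 with Th0, with overlapping groups. Its log2 fold change of -0.03 changed sign under other scalings and without single libraries.

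With Th17, 0 of 12 tested H2A genes were called in limma-trend, 4 had an unadjusted p under 0.05, and the median log2 fold change was 0.17, or 0.04 without Th0 replicate 1. In the fit that left out this library, Hist1h2ad and Hist1h2ah were higher and Hist1h2ak was lower. Hist1h2ad reached the mean of 10 through the Th17 libraries, so its call, 1 of the 7 higher ones above, is no support, with 19, 15 and 18 normalized counts with Th17 and 11, 7 and 2 with Th0. Hist2h2ac had 350, 282 and 247 with Th17 and 244, 415 and 346 with Th0, and these groups overlapped (log2 fold change -0.17, limma-trend adjusted p 0.676).

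H2B genes, which encode the partner of H2A, held the only member that was higher with Th9. Of 13 tested genes, 5 were lower with Th9 (Hist1h2bm, Hist1h2bf, Hist1h2bc, Hist1h2be and Hist1h2bh), where 11.9% of all genes were. The lower H2B genes were again 5 without Th0 replicate 1 (background 19.1%), with Hist1h2bn in place of Hist1h2bh. Hist1h2bm had 551, 679 and 685 normalized counts with Th9 and 1089, 1456 and 1044 with Th0 (log2 fold change -0.90, SE 0.13, limma-trend adjusted p 0.000361). Hist1h2bf had 109, 132 and 99 with Th9 and 202, 228 and 198 with Th0 (log2 fold change -0.89, limma-trend adjusted p 0.000648). Both were apart from Th0 in every library. Hist1h2bc was lower by a log2 fold change of -0.56, Hist1h2be by -0.46 and Hist1h2bh by -0.43. The calls of Hist1h2be and Hist1h2bh were lost without Th9 replicate 1 (limma-trend adjusted p 0.0749 and 0.153) and with all libraries scaled to equal totals (0.0620 and 0.134). That of Hist1h2bh was also lost without Th0 replicate 1 (0.0540), with equal totals set without 3 RNA genes (0.0799) and with array weights (0.0818).

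Hist1h2bg was higher with both T cell types, against the direction of most H2B genes with Th9. It had 818, 869 and 480 normalized counts with Th9 and 443, 416 and 329 with Th0, a log2 fold change of 0.83 (SE 0.19, limma-trend adjusted p 0.0077). Th9 replicate 3 was far lower than the other Th9 libraries and close to the highest Th0 value. Without Th9 replicate 2 the adjusted p was 0.0490 in limma-trend, and the call held without each of the other libraries. With Th17, Hist1h2bg had 853, 657 and 814, against 455, 425 and 338 with Th0 in the same table (log2 fold change 0.93, SE 0.13, limma-trend adjusted p 0.00665). The groups did not overlap, but the call was lost without Th17 replicate 1 (limma-trend adjusted p 0.0686) and without Th17 replicate 3 (0.0642). About 49.7% of the 50-base runs of its transcript are shared with other genes. The other 12 tested H2B genes were not called with Th17, among them Hist1h2bm with 1103, 897 and 850 with Th17 and 1120, 1487 and 1071 with Th0. In the fit without Th0 replicate 1, 1 H2B gene was higher with Th17 (background 6.85%) and 2 were lower (background 9.7%). The lower ones were Hist1h2bm (log2 fold change -0.42) and Hist1h2bc (-0.26).

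Hist1h2bg shares its promoter region with Hist1h2ae, an H2A gene read in the opposite direction. The stretches of 130 bases before each start overlap, at chr13:23571270-23571399 (plus strand) for Hist1h2bg and chr13:23571221-23571350 (minus strand) for Hist1h2ae. The same octamer match lies in both, printed as ATTTGCAT on the strand of Hist1h2bg and as ATGCAAAT on the strand of Hist1h2ae. The octamer was found in 6 of 13 H2A promoters and 4 of 12 H2B promoters, and in 0 of those of H1, H3 and H4, so in 20.4% of members against 1.74% of all promoters. The sequences are shown because the genes on either side differed in their calls.
Hist1h2bg: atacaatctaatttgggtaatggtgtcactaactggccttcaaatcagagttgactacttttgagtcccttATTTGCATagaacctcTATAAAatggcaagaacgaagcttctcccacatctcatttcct
Hist1h2ae: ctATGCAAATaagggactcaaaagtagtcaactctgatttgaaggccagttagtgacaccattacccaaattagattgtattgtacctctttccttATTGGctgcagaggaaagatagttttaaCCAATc

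Hist1h2ae had 143, 175 and 157 normalized counts with Th9 and 103, 160 and 198 with Th0 (log2 fold change 0.09, limma-trend adjusted p 0.785), with overlapping groups. With Th17 it had 176, 178 and 144, against 106, 164 and 203 with Th0 (log2 fold change 0.12, limma-trend adjusted p 0.817). In all, 9 pairs of an H2A and an H2B gene were divergent in this way, with 238 to 301 bases between the gene models. In the Th9 comparison both genes were tested in 8 of the pairs, of which 0 had both called, 4 had 1 called and 4 had none. Hist1h2bf was called in the remaining pair, where Hist1h2ad was not tested. Over all tested genes 11.9% were lower and 13.4% higher with Th9, and the pair counts were not tested against these shares. Hist2h2ac was lower with Th9 (log2 fold change -0.93) while its partner Hist2h2be, which shares no 50-base run with another gene, had 98, 116 and 93 normalized counts with Th9 and 91, 81 and 79 with Th0 (log2 fold change 0.28, limma-trend adjusted p 0.203). Hist1h2bc was lower with a log2 fold change of -0.56 and its partner Hist1h2ac was at -0.0041. The difference between partners was not tested.

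**Figure D4:**
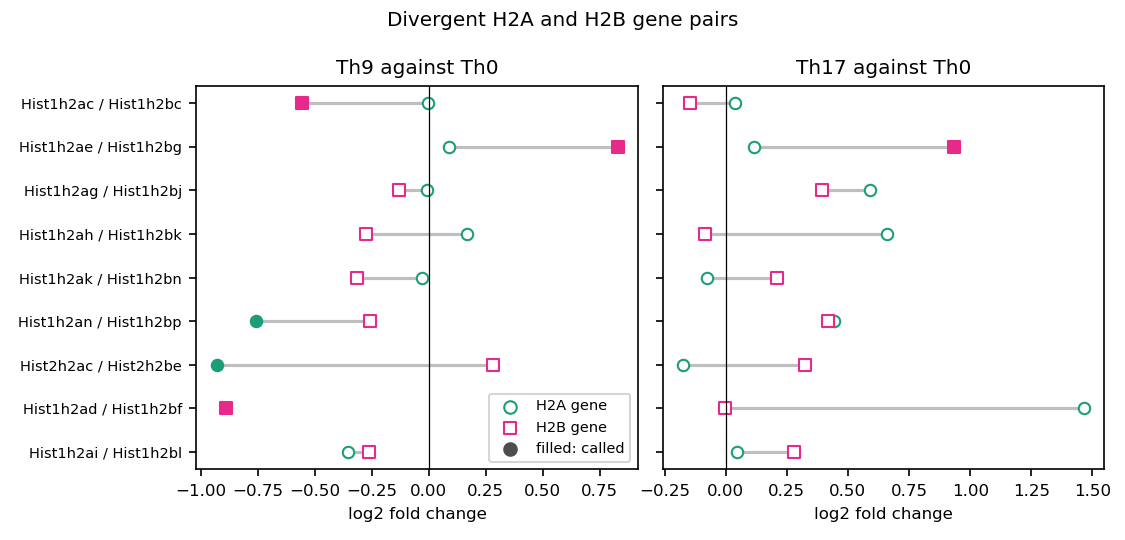
Log2 fold change (x axis) with Th9 against Th0 (left) and Th17 against Th0 (right) of the H2A gene (circle) and the H2B gene (square) in each of 9 divergent pairs, filled where called. In the Th9 panel 5 pairs have 1 filled symbol and none has 2, and Hist1h2ad, with a mean under 10 in that table, is not drawn. Of all tested genes, 11.9% were called lower and 13.4% higher with Th9.

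H3 genes, which encode a core histone paired with H4, had no call with either T cell type. With Th9, 0 of 9 tested genes were called in limma-trend, 1 gene (Hist1h3b) had an unadjusted p under 0.05, and no other tool was run. Log2 fold changes ran between -0.43 and 0.28 with a median of 0.09, which was -0.03 without Th0 replicate 1. The summed normalized count of the 9 genes was 1490, 1608 and 1319 with Th9 and 1230, 1480 and 1380 with Th0, with overlapping groups. The most abundant by value was Hist1h3c, with 340, 402 and 308 with Th9 and 261, 316 and 335 with Th0 (log2 fold change 0.20, limma-trend adjusted p 0.274). Hist1h3e had 263, 306 and 233 with Th9 and 190, 254 and 215 with Th0.

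With Th17 the 9 H3 genes had log2 fold changes between -0.02 and 0.60 with a median of 0.21, and 0 were called by limma-trend, with 3 at an unadjusted p under 0.05. Their sum was 1835, 1589 and 1587 with Th17 and 1263, 1512 and 1417 with Th0, and every Th17 library lay above every Th0 library. Hist1h3a, with 158, 146 and 152 with Th17 and 117, 121 and 114 with Th0, was not called (limma-trend adjusted p 0.130), but was higher without Th0 replicate 1 (0.0475) and with array weights (0.0144).

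H4 genes, which encode the partner of H3, were mostly not called. With Th9, 2 of 12 tested genes were lower, a share near the 11.9% of all genes, and 0 were higher. Without Th0 replicate 1, 6 were lower (background 19.1%) and 1 was higher (background 18.1%). Hist1h4a had 144, 134 and 131 normalized counts with Th9 and 202, 298 and 290 with Th0 (log2 fold change -0.92, SE 0.15, limma-trend adjusted p 0.000844). All Th9 libraries were below all Th0 libraries, and the call held without any 1 library. Hist1h4k had 138, 162 and 203 with Th9 and 172, 334 and 330 with Th0, with overlapping groups. Its limma-trend call (log2 fold change -0.68, adjusted p 0.0438) was lost with equal totals (0.102) and without Th0 replicate 2 (0.154), Th0 replicate 3 (0.161) or any of Th9 replicates 1, 2 and 3 (0.176, 0.124 and 0.0511). Without Th0 replicate 1 the log2 fold change of Hist1h4k was -0.999. Hist1h4d, the H4 gene with the highest level per kilobase in Th0, had 889, 983 and 718 with Th9 and 912, 1047 and 1031 with Th0, with overlapping groups.

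Hist1h4h was the H4 gene that was higher with Th17. It had 1284, 1116 and 1113 normalized counts with Th17 and 703, 858 and 721 with Th0 (log2 fold change 0.62, SE 0.10, limma-trend adjusted p 0.0110). The groups did not overlap. The limma-trend call was lost without Th0 replicate 3 (adjusted p 0.0684) and without each of Th17 replicates 1, 2 and 3 (0.0927, 0.0592 and 0.0692). With Th9 the gene had 962, 997 and 657, against 684, 840 and 703 with Th0 in that table (log2 fold change 0.21, limma-trend adjusted p 0.309), and Th9 replicate 3 was again the lowest of its group. Hist1h4a had 173, 186 and 186 with Th17 and 208, 305 and 297 with Th0, which did not overlap but was not called (log2 fold change -0.55, limma-trend adjusted p 0.0877). In the fit without Th0 replicate 1, 3 H4 genes were higher with Th17 (background 6.85%) and 3 were lower (background 9.7%). Hist1h4a was then among the lower ones (log2 fold change -0.73, limma-trend adjusted p 0.000202).

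Summed by type in the deposited scaling, every Th9 library lay below every Th0 library for H1 and, by a small margin, for H2B. H1 genes summed to 14137, 15099 and 15295 normalized counts with Th9 and 17872, 22926 and 22182 with Th0, a ratio of 0.707. Ratios of the mean sums were 0.895 for H2A, 0.836 for H2B (3569, 3973 and 3237 with Th9 and 4094, 4815 and 3986 with Th0), 1.08 for H3 and 0.916 for H4. With Th17, H1 summed to 18890, 17201 and 16100, against 18381, 23421 and 22764 with Th0 (ratio 0.808), while the ratio was 1.04 for H2A, 1.08 for H2B, 1.20 for H3 and 1.14 for H4. The H2A ratio with Th17 was below 1, at 0.952, without Th0 replicate 1. In bulk RNA, fewer cells in S phase and less histone RNA per cell cannot be told apart.

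Genes that process or transcribe histone mRNAs were looked at from a list of 20, of which 19 were tested. With Th9, 5 were lower (background 11.9%) and 2 were higher (background 13.4%). With Th17, 1 was lower (background 0.39%) and 0 were higher. When Th0 replicate 1 was left out, 6 were lower with Th9 (background 19.1%) and 4 with Th17 (background 9.7%). Slbp, which encodes the protein that binds the stem-loop shown above, had 684, 758 and 700 normalized counts with Th9 and 1124, 1001 and 1054 with Th0 (log2 fold change -0.57, SE 0.08, limma-trend adjusted p 0.000459). It was apart from Th0 in all libraries. With Th17 Slbp had 1064, 968 and 1050, against 1156, 1022 and 1082 with Th0, and was not called (log2 fold change -0.08, limma-trend adjusted p 0.651). Srrt, whose product ARS2 works with the cap-binding complex in histone mRNA formation, was lower with Th9 (log2 fold change -0.72, limma-trend adjusted p 8.1e-05). With Th17 Srrt was also lower (log2 fold change -0.35, limma-trend adjusted p 0.0457), a call lost without each library but Th0 replicate 1, with adjusted p of 0.0625 to 0.259. Npat, the coactivator of histone genes in S phase, had 832, 818 and 862 with Th9 and 723, 972 and 850 with Th0, with overlapping groups. With Th17 it had 891, 920 and 935, against 744, 994 and 872 with Th0, and was not called either. Genes higher with Th9 were Cpsf3, the nuclease subunit that cuts histone pre-mRNA (log2 fold change 0.35), and Lsm11, a subunit of the U7 particle that guides the cut (log2 fold change 0.35). Both calls were lost without Th9 replicate 1, with limma-trend adjusted p of 0.111 and 0.187.

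Replication-independent variants, most of which are made outside S phase too and from polyadenylated mRNAs, were also lower in part with Th9. Their median log2 fold change was -0.28, against -0.21 for the clustered members. With Th9, 4 of 11 were lower (background 11.9%) and 1 was higher (background 13.4%). Without Th0 replicate 1, 7 were lower (background 19.1%) and 1 was higher (background 18.1%). H1f0, the linker variant of resting cells, had 1844, 2094 and 2146 normalized counts with Th9 and 2648, 3305 and 3512 with Th0 (log2 fold change -0.63, limma-trend adjusted p 0.00137). H2afx, which encodes the variant phosphorylated at DNA breaks and also makes a stem-loop mRNA, was lower by a log2 fold change of -0.55. H3f3a and H3f3b encode the same protein, H3.3, from separate genes. H3f3a had 286, 313 and 305 with Th9 and 206, 247 and 171 with Th0 (log2 fold change 0.55, limma-trend adjusted p 0.0105, and 0.0547 without Th9 replicate 2). H3f3b had 3007, 3109 and 2873 with Th9 and 3319, 4019 and 3750 with Th0 (log2 fold change -0.30, limma-trend adjusted p 0.0316). The H3f3b call was lost without any 1 library other than Th0 replicate 1, with adjusted p of 0.0853 to 0.121. With Th17, H3f3a was higher at 379, 320 and 359, against 212, 252 and 176 with Th0 (log2 fold change 0.73, limma-trend adjusted p 0.0231). H2afj was lower with Th17 (log2 fold change -0.54, limma-trend adjusted p 0.0166), and these were the only calls of the list. Both of these calls were lost without Th0 replicate 3 and without each Th17 library, with limma-trend adjusted p of 0.074 to 0.159. Without Th0 replicate 1, 2 were higher (background 6.85%) and 2 were lower (background 9.7%) with Th17.

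Histone chaperones, which carry histones to DNA, and cell cycle genes were lower with Th9 in part. Over all tested genes, 11.9% were lower and 13.4% higher with Th9, and 0.39% lower and 1.19% higher with Th17. Of 23 chaperone genes, 5 were lower with Th9 and 0 were higher, and 0 were called with Th17 by limma-trend (4 at an unadjusted p under 0.05). Chaf1a, the large subunit of the assembly factor CAF-1, had 2138, 2338 and 2501 normalized counts with Th9 and 3394, 4016 and 4818 with Th0 (log2 fold change -0.80, limma-trend adjusted p 0.000464). Of 24 genes of S phase and DNA replication, 12 were lower with Th9 and 0 were higher (median -0.33 on the log2 scale), and 0 were called with Th17 by limma-trend (7 at an unadjusted p under 0.05, median -0.09). Tyms, which makes thymidylate for DNA, had 410, 406 and 423 with Th9 and 762, 669 and 702 with Th0 (log2 fold change -0.78, limma-trend adjusted p 5.8e-05). Among 15 G2/M genes, 9 were lower and 1 was higher with Th9, and 0 were lower and 1 was higher with Th17. Mki67, the proliferation marker, had 18223, 19696 and 20379 with Th9 and 25056, 31559 and 27720 with Th0 (log2 fold change -0.53, limma-trend adjusted p 0.0138). The Mki67 call was lost without Th9 replicate 1 (0.109) and without Th9 replicate 2 (0.0684). With Th17, Mki67 had 27491, 27363 and 27421, against 25770, 32242 and 28446 with Th0, with overlapping groups. Without Th0 replicate 1 the lower genes were 9 chaperone, 17 S phase and 13 G2/M genes with Th9 (background 19.1%). With Th17 they were 7, 8 and 5 (background 9.7%). How these lists bear on the histone values was not tested.

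**Figure D5:**
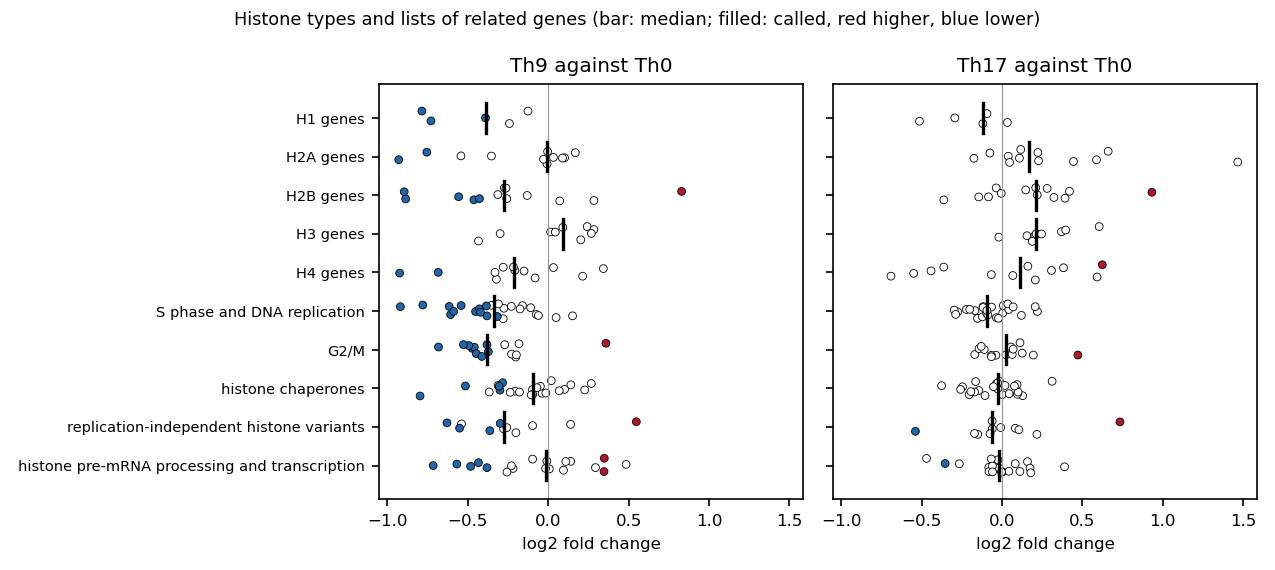
Log2 fold change (x axis) with Th9 against Th0 (left) and Th17 against Th0 (right) of each tested gene, in rows for the 5 histone types and 5 lists of related genes, with the median as a black bar and called genes filled. With Th9 the row of S phase genes has 12 called lower and a median of -0.33, and with Th17 it has 0 called and a median of -0.09.

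T cell transcripts moved with the Th9 comparison. Of 24 T cell markers listed, 20 were tested and 18 were called higher with Th9, but most reached the mean of 10 through the Th9 libraries alone, so this count is no support. Their summed normalized count was 1486 to 2100 with Th9 and 103 to 232 with Th0. Cd3g, part of the CD3 complex, had 352, 346 and 254 with Th9 and 8, 5 and 2 with Th0, and Ptprc had 551, 447 and 401 with Th9 and 51, 25 and 6 with Th0. Cd6, Trbc1 and Ubash3a were at 0 in all Th0 libraries. Groups overlapped for Cd4, at 23, 23 and 17 with Th9 and 10, 8 and 18 with Th0. They also overlapped for Cd5, at 39, 30 and 33 with Th9 and 34, 29 and 32 with Th0. Histone mRNAs of T cells would be counted in the same rows, and the part of these cells in the Th9 result was not tested. With Th17 the 13 listed T cell markers summed to 78 to 98, against 100 to 219 with Th0, 0 of 5 tested were called by limma-trend (1 at an unadjusted p under 0.05), and Cd3g had 0, 1 and 0 with Th17. Of the genes that mark the cancer line, Vim, which T cells also express, had 67746, 65637 and 68614 with Th9 and 56024, 81414 and 78914 with Th0. The keratin gene Krt8 was lower, at 956, 1050 and 1255 with Th9 and 1688, 2470 and 2282 with Th0 (log2 fold change -0.97, limma-trend adjusted p 0.000316), and its partner Krt18 had 3031, 3315 and 3452 with Th9 and 3215, 4500 and 4636 with Th0. Col1a1, which reached the mean of 10 through Th0 alone, was lower (5, 5 and 5 with Th9, and 18, 21 and 16 with Th0), and Axl was higher (5964, 5893 and 6143 with Th9, and 4247, 4463 and 4598 with Th0). Of the 6 markers of the line, 1 was higher (background 13.4%) and 2 were lower (background 11.9%) with Th9. Col1a1 is 1 of these 2 lower genes, and because of how it reached the filter its call is no support. With Th17, 0 were called by limma-trend (0 at an unadjusted p under 0.05). Their sum, which is mostly Vim, was 83452 to 86902 with Th9 and 71698 to 100966 with Th0, and 95542 to 97475 with Th17 against 73739 to 103150 with Th0 in that table.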

How the data were processed

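The authors deposited 2 tables of scores per gene, normalized separately, whole numbers that come from dividing the read counts of a library by its size factor (found from the values: Th0 differs between the tables by 1 factor per library). A count model had been planned only if counts were deposited, so log values were tested. STAR 2.4.0a, featureCounts 1.4.5-p1 of Subread, DESeq2 1.62, with mm10 and GRCm38 as builds, stand in the list of tools per the submitters' processing notes. A stranded kit for total RNA was used per the labels' protocols, and whether counting used the strand is not given in the sources used here. No value column was left unused (0).

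limma-trend (limma 3.58.1, R 4.3.3) was run within each table on log2(value + 1). Genes needed a mean of 10 or more over their 6 libraries, the model had no term but group, and p-values were Benjamini-Hochberg adjusted over all tested genes (threshold 0.05). The scripts were tested on simulated data. A log2 fold change on this scale understates the change of low genes. Approximate reads are the deposited value times the size factor, and they limit precision by counting error. Alternatives were no filter, a mean of at least 50, a pseudocount of 10, equal library totals with and without 3 abundant RNA genes, array weights, a replicate block and leaving out each library.

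Members, lists and tests were chosen with earlier results of these data known. Named genes were, per type and comparison, up to 3 called members and the 2 most abundant, per list up to 3 called genes, and 10 set genes. Other named genes were chosen after their values were seen. Stem-loops and shared 50-base runs come from GENCODE M21 transcripts, searched with Python 3.11.15, and promoters from RefSeq.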

Additional observations from a re-analysis of the deposited data

How the results depend on the processing

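The count of members lower with Th9 than with Th0 (12) was 12 with no filter, with a mean of at least 50 and with a pseudocount of 10, and 8 with equal library totals, 11 with equal totals without 3 RNA genes and 19 with array weights. That of members higher with Th9 (1) became 2 with equal totals and 6 with array weights. Equal totals moved the median log2 fold change of all genes with Th9 by 0.11, and relative to it the members kept a median of -0.20. Leaving out 1 library gave 8 to 19 lower and 1 to 2 higher members with Th9, and 0 to 10 lower and 0 to 7 higher with Th17, the highest of these without Th0 replicate 1. With Th17, lower members (0) became 1 with no filter, with a mean of at least 50 and with equal totals without 3 RNA genes, and 8 with array weights, and higher members (2) became 14 with array weights. Same-numbered libraries correlated at -0.01 to 0.15 with Th9 and -0.08 to 0.04 with Th17. Differently numbered libraries correlated at -0.13 to 0.04 with Th9 and -0.05 to 0.09 with Th17. With 3 libraries per group these values cannot settle whether replicate numbers pair the samples. With the replicate block, higher and lower members were 2 and 14 with Th9, and 2 and 1 with Th17.

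Over 69 named gene comparisons, 885 alternative values were computed, of which 787 kept direction and side of the threshold, 59 lost and 20 gained a call, and 19 changed sign. With Th9, signs changed for Hist1h2ak (0.079 with equal totals, 0.016 without 3 RNA genes, -0.17 to 0.097 leaving out 1 library, where 0.021 and 0.036 were without Th9 replicates 1 and 2), for Npat (0.099, 0.036 and -0.12 to 0.095, with 0.0080 without Th9 replicate 2) and for H2afz (0.011 with equal totals). Leaving out 1 library gave -0.0041 to 0.18 for Hist1h2ab and -0.046 to 0.16 for Hist1h2bb with Th9, and with Th17 -0.21 to 0.049 for Hist1h2ak, -0.025 to 0.18 for Npat and -0.14 to 0.019 for Mki67. H2afx with Th17 was 0.016 with equal totals, 0.015 without 3 RNA genes and -0.10 to 0.088 leaving out 1 library. None of these was called in its main comparison. The cause was not tested. Members with few reads, such as Hist1h4i, have wide errors at this depth.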

Other observations

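Among other transcripts that lack a usual poly(A) tail, 5 of 11 on a list were tested and 0 were called by limma-trend with Th9 or Th17, and 0 had an unadjusted p under 0.05. Rpph1, the RNA of RNase P, had 38061, 39036 and 40835 normalized counts with Th9 and 43726, 49119 and 49444 with Th0, and 41884, 40126 and 39712 with Th17 against 44970, 50182 and 50739 with Th0 in that table. Its log2 fold change was -0.27 with Th9 and -0.26 with Th17, and without Th0 replicate 1 it was called lower in both (limma-trend adjusted p 0.000777 and 0.00203). In that fit 2 genes of the list were lower (background 19.1%) and 1 was higher (background 18.1%) with Th9. With Th17, 1 was lower (background 9.7%) and 1 was higher (background 6.85%).

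Hist3h2bb-ps, a histone pseudogene that is listed but is not protein-coding, had 26, 29 and 22 normalized counts with Th9 and 20, 32 and 27 with Th0, and 32, 42 and 38 with Th17 against 20, 33 and 27 with Th0. Both pairs of groups overlapped. Of 6 tested B and myeloid cell markers, Cd14 was called higher (background 13.4%) and Lyz2 lower (background 11.9%) with Th9 by limma-trend. With Th17, 0 were called (2 at an unadjusted p under 0.05). The Cd14 call was lost without Th0 replicate 3 and without Th9 replicates 1 and 2, with adjusted p of 0.0537 to 0.0716. Lyz2, at 0, 2 and 1 with Th9 and 33, 15 and 11 with Th0, reached the mean of 10 through Th0 alone, so its call is no support. It was not tested without Th0 replicate 1.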
